A study of Bos taurus with 48 samples.

Results

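The genes described are those for heat shock proteins, chaperones and the folding machinery of the endoplasmic reticulum in the endometrium of dairy cows. A probe was a member when its gene name on the array was that of a heat shock protein (HSP followed by letters or digits), a DNAJ protein, a protein disulfide isomerase (PDIA, P4HB), CALR, CANX, an ERP, XBP1, ATF4, ATF6, DDIT3, HERPUD1, a SEC61 subunit or a CCT subunit. This rule found 93 of the 21475 probes on the array, carrying 91 gene symbols, and used no measured value. It also took in 10 genes named HSPC with a number and HSPG2, the basement membrane proteoglycan perlecan, which match the letters of the rule and are not chaperones. Several symbols are those of an older annotation, and HSPCA is HSP90AA1, the inducible cytosolic HSP90, in the current RefSeq table.

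Caruncular endometrium (the aglandular areas where the placenta attaches in ruminants) and intercaruncular endometrium (the glandular tissue between them) were taken from 22 lactating Holstein Friesian cows of mixed New Zealand and North American ancestry, slaughtered on day 17 of the reproductive cycle. All cows had synchronised oestrous cycles. The 12 pregnant cows had received a grade 1 blastocyst on day 7, and the 10 cyclic cows had received none. Labels put 7 pregnant cows in a large and 5 in a small embryo group, and 6 in a fertile and 6 in a sub-fertile class whose definition the labels do not give. Each sample was compared on a 2-colour array with a pool of equal amounts of RNA from all 44 samples, so every level below is log2 of a sample over that pool, and 0 means as in the pool.

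Chaperones bind proteins that are not in their final fold. In the cytosol, HSP70 proteins work with DNAJ co-chaperones, which bring them their clients, and with nucleotide exchange factors of the HSP110 type, while HSP90 matures receptors and kinases and the ring-shaped CCT complex folds actin and tubulin. In the endoplasmic reticulum, secreted proteins are folded by HSPA5, lectin chaperones and disulfide isomerases, and a shortage of folding capacity is sensed through the unfolded protein response, whose arms include ATF6, XBP1 and ATF4. The day examined lies in the period when the bovine conceptus secretes interferon tau and the endometrium prepares for attachment.

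The first 30 of the 60 bases of the array probes behind the 5 members called between pregnant and cyclic cows are given here, 5′ to 3′. The value of each of these members rests on that single probe of 60 bases. No letter is marked.
HSPA4L: ttgttttcttagttcattttgttaatgtta
DNAJA1: ctagctctgcaaaagaatgtgatttgtgac
DNAJC6: caggttttcgcattccttttaaatatctgg
HSPA12A: gaactttgcagcagttcacaatttgattgt
HSPB8: ctagtggtgttgtgtatatgggtgggacgt

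On the arrays, 68.8% to 84.0% of spots were well above background, and 84 of the 93 member probes passed the filter on dim signals, 80 of all 93 being well above background in all 44 samples. The 9 members not tested were DNAJC5 (above background in 21 samples), HSPA12B, HSPB3, HSPB7, DNAJB5, DNAJB8, DNAJB13, DNAJC1 and 1 of the 2 HSPA1A probes. The tested members varied little. Their median SD between cows of a group was 0.232 on the log2 scale against 0.283 over all probes tested, and 24 of the 84 had a larger SD than the median probe. HSPA1A, HSPA1B and HSPA1L are close copies, and a probe may bind RNA of more than 1 of them, so their values are uncertain. Most slides held cows of 1 state and 1 tissue. Cows are named as in the labels, and, repeat arrays left aside, a single slide per tissue held both states (3 pregnant cows and cow Cyclic_3972), and cows Pregnant_9790 and Cyclic_9786 each had both of their tissues on 1 slide, which otherwise held repeat arrays of other cows, in the third scan batch.

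In caruncular endometrium, most members were near their cyclic level in pregnant cows, as were most of all probes, and a few members differed. HSPA4L, an HSP110-type partner of HSP70, and the HSP70 co-chaperones DNAJA1 and DNAJC6 were up-regulated in pregnant cows, and HSPA12A, a distant HSP70 relative, and HSPB8, a small heat shock protein of chaperone-assisted autophagy, were down-regulated. By limma with Benjamini-Hochberg adjustment, 5 of 84 members (3 up-regulated and 2 down-regulated) passed both criteria of a call, a change of 1.5-fold or more and an adjusted p below 0.05, against 9.99% of all probes tested. On the adjusted p alone, 19 members passed (26.9% of all probes did), 7 of them higher and 12 lower in pregnant cows, where 11.4% and 15.4% of all probes passed in those directions. The median change was -0.04 over the members and -0.04 over all probes. For 68 of 84 members (81.0%) the 95% interval of the change lay within 1.5-fold either way, which held for 66.3% of all probes.

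**Figure D1:**
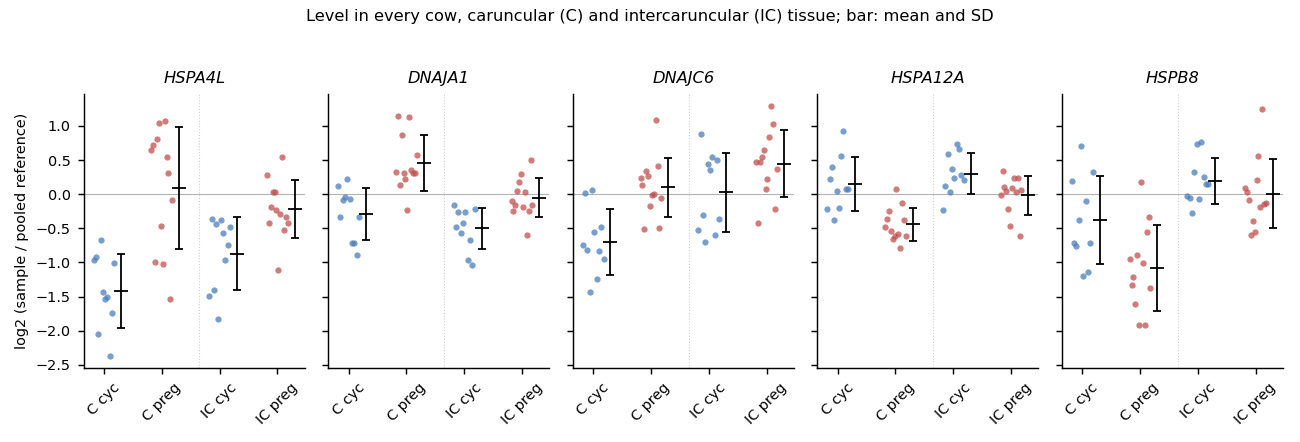
Log2 of sample over pooled reference (vertical axis) for HSPA4L, DNAJA1, DNAJC6, HSPA12A and HSPB8, with a point for each cow in caruncular (C) and intercaruncular (IC) tissue, blue for the 10 cyclic and red for the 12 pregnant cows, and a bar for the mean and SD. In caruncular tissue 9 pregnant cows lie above the highest cyclic cow for HSPA4L and for DNAJA1, and the groups overlap in every panel.

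HSPA4L had the largest change of any member. Its caruncular level ran from -2.37 over a median of -1.48 to -0.67 in cyclic cows and from -1.54 over 0.43 to 1.07 in pregnant cows. The groups overlapped, since cows Pregnant_9790, at -1.54, and Pregnant_3807, at -1.02, lay among the cyclic cows, while 9 of 12 pregnant cows were above the highest cyclic cow. The difference was 1.51 (SE 0.31, 95% interval 0.88 to 2.14, 2.85-fold, limma adjusted p = 0.00103). A second probe, which the reference table assigns to HSPA4L but the array does not, gave 1.35 (SE 0.27, limma adjusted p = 0.00089).

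Among the DNAJ proteins, DNAJA1 (a type I co-chaperone of cytosolic HSP70) ran from -0.89 over -0.21 to 0.22 in cyclic and from -0.24 over 0.32 to 1.15 in pregnant cows. Here too 9 of 12 pregnant cows exceeded every cyclic cow, and the difference was 0.74 (SE 0.16, limma adjusted p = 0.0021). DNAJC6, auxilin, which uncoats clathrin vesicles with HSPA8, ran from -1.43 over -0.78 to 0.06 in cyclic and from -0.52 over 0.07 to 1.09 in pregnant cows. Of the pregnant cows, 6 lay above all cyclic cows, and the difference was 0.80 (SE 0.19, limma adjusted p = 0.00318). Of the 26 DNAJ probes tested, 3 passed the adjusted p upward and 3 downward, and their median change was -0.02. The third upward was DNAJC7 (0.16), and the 3 downward were DNAJA4 (-0.33), DNAJB4 (-0.38) and DNAJC10 (-0.30), a disulfide reductase of the endoplasmic reticulum.

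HSPA12A ran from -0.38 over 0.07 to 0.92 in cyclic and from -0.79 over -0.51 to 0.08 in pregnant cows, with 8 pregnant cows below the lowest cyclic cow. Its change of -0.59 (SE 0.13, limma adjusted p = 0.00253) is barely past 1.5-fold, and was -0.51 without cows Pregnant_9790 and Cyclic_9786, which is short of it. In all, HSPA12A lost its call under 7 alternatives, with changes from -0.585 (scan date as a fixed block) to -0.19 (slide as a fixed block). HSPB8 ran from -1.20 over -0.55 to 0.71 in cyclic and from -1.92 over -1.11 to 0.18 in pregnant cows, a broad overlap, with a change of -0.70 (SE 0.26, limma adjusted p = 0.0482). This call was lost under 7 alternatives, with limma or t-test adjusted p from 0.0517 to 0.872, and the sign turned (0.51) within the slide that held both states. All 4 small heat shock proteins tested had lower means in pregnant cows. So did most of all probes, 6331 of 14690 having higher means. By the adjusted p 2 passed, HSPB8 and the muscle chaperone HSPB2 at -0.47 (limma adjusted p = 0.00824). For HSPB2, 10 of 12 pregnant cows, with levels from -0.43 over 0.20 to 0.76, lay below the lowest of the cyclic cows, whose levels ran from 0.39 over 0.55 to 0.88. HSPB1 was at -0.06 (95% interval -0.28 to 0.16) and HSPB6 at -0.06 (-0.30 to 0.18).

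Of the 13 HSP70 and HSP110 genes tested, HSPA1B and HSPA6 among them, only HSPA4L was higher in pregnant cows by the adjusted p. Of the 2 HSP90 genes tested none was. HSPA8, the constitutive HSP70, changed by 0.07 (95% interval -0.25 to 0.38), HSPA1A by -0.33 (-0.71 to 0.06), HSPH1 by 0.11 (-0.10 to 0.32) and DNAJB1, the main partner of inducible HSP70, by -0.32 (-0.58 to -0.06, limma adjusted p = 0.066). HSPCA was lower in pregnant cows by the adjusted p, ranging from -0.20 over 0.46 to 0.92 in cyclic and from -0.52 over 0.12 to 0.36 in pregnant cows, with a change of -0.47 (SE 0.13, limma adjusted p = 0.0111). HSP90AB1, the constitutive form, changed by -0.20 (95% interval -0.48 to 0.08). HSPA1L was lower by the adjusted p (-0.50, limma adjusted p = 0.00159). In the mitochondrial chaperonin, HSPD1 was at 0.09 (-0.21 to 0.38; 1 cyclic sample was missing) and HSPE1 at 0.18 (-0.05 to 0.41). None of the 8 CCT probes passed, with changes from -0.20 to 0.22.

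In the endoplasmic reticulum, all 5 members of the unfolded protein response had higher means in pregnant cows, and 2 passed the adjusted p. Of all 14690 probes, 6331 had higher means. ATF6, the membrane-bound sensor, ran from -0.74 over 0.04 to 0.74 in cyclic and from 0.07 over 0.54 to 0.94 in pregnant cows, a change of 0.45 (SE 0.17, limma adjusted p = 0.0496). DDIT3 (CHOP), the death-associated factor of the response, changed by 0.24 (limma adjusted p = 0.0455). ATF4, XBP1 and HERPUD1 were at 0.24, 0.16 and 0.14 and did not pass. None of the 8 lectin chaperones and disulfide isomerases was higher by the adjusted p, and P4HB, which is also the beta subunit of collagen prolyl hydroxylase, was lower. Its level ran from -0.09 over 0.18 to 0.77 in cyclic and from -0.46 over -0.20 to 0.09 in pregnant cows, and 9 of 12 pregnant cows were below every cyclic cow (change -0.48, SE 0.10, limma adjusted p = 0.00126). SEC61A1, the pore of the translocon, was lower as well (-0.28, limma adjusted p = 0.0142). HSPA5 (BiP), the master chaperone of the compartment, was at -0.32 (95% interval -0.61 to -0.03, limma adjusted p = 0.0926), ranging from -0.22 over 0.41 to 1.24 in cyclic and only from -0.27 over 0.09 to 0.45 in pregnant cows. CALR was at -0.14 (-0.29 to 0.01), CANX at -0.02 (-0.18 to 0.15) and PDIA4 at -0.22 (-0.60 to 0.17). By the reference table's names, 2 further genes of the compartment were on the array under older symbols outside the rule, HSP90B1 at -0.12 and PDIA3 at 0.14, and neither passed. Of the HSPC-numbered genes, HSPC117 (0.27) was higher and HSPC268 (-0.27) and HSPC023 (-0.18) were lower by the adjusted p.

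**Figure D2:**
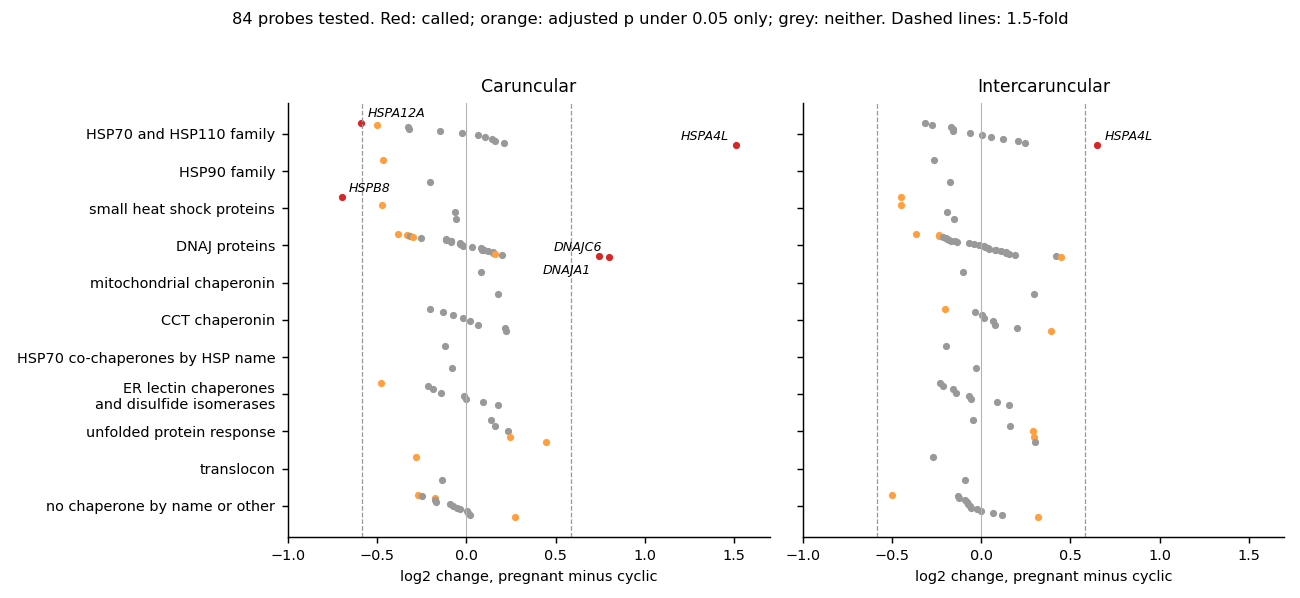
Log2 change between pregnant and cyclic cows (horizontal axis, above 0 is higher in pregnant cows) of the 84 member probes tested, by group of proteins, in caruncular (left) and intercaruncular tissue (right), with dashed lines at 1.5-fold. Red points (5 and 1) passed 1.5-fold and the adjusted p, orange points the adjusted p alone, and most points lie between the dashed lines.

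In intercaruncular endometrium the same comparison called a single member, HSPA4L, of 84, where 7.24% of all probes were called. Its level ran from -1.84 over -0.66 to -0.37 in cyclic and from -1.12 over -0.26 to 0.54 in pregnant cows. The change was 0.65 (SE 0.19, 1.57-fold, limma adjusted p = 0.0206), 8 of 12 pregnant cows were above the highest cyclic cow, and the second probe gave 0.75 (limma adjusted p = 0.00743). On the adjusted p alone 13 members passed, 6 higher and 7 lower, against 20.3% of all probes, 9.24% higher and 11.1% lower. The median change was -0.05 over the members and -0.01 over all probes (-0.049 and -0.015), and 71 of 84 intervals (84.5%) lay within 1.5-fold, as did 67.5% of all.

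The small heat shock proteins HSPB6 and HSPB2 were lower in pregnant cows in this tissue. HSPB6 ran from 0.09 over 0.34 to 0.64 in cyclic and from -0.27 over -0.13 to 0.19 in pregnant cows, so that 11 of 12 pregnant cows were below every cyclic cow (change -0.45, SE 0.08, limma adjusted p = 0.000244). HSPB2 changed by -0.45 (limma adjusted p = 0.0448), and cow Cyclic_9786, at -0.26, lay among the pregnant cows. Of the other members that passed downward, HSPG2 was at -0.50 with 1 of its 2 probes (the other, at -0.08, did not pass), DNAJB4 at -0.37, DNAJC15 at -0.24, DNAJC10 at -0.23 and CCT8 at -0.21. The members higher by the adjusted p besides HSPA4L were DNAJA1 (0.45), CCT6A (0.39), HSPC117 (0.32), HERPUD1 (0.29) and DDIT3 (0.29). HERPUD1 takes part in degradation at the endoplasmic reticulum and ran from -0.58 over -0.45 to 0.01 in cyclic and from -0.32 over -0.10 to 0.55 in pregnant cows. HSPB1 (-0.15), HSPA5 (-0.28, limma adjusted p = 0.128), HSPA8 (-0.17), HSPA1A (0.06), HSPCA (-0.26), HSP90AB1 (-0.18), HSPD1 (-0.10), HSPE1 (0.30), HSPH1 (-0.16), DNAJB1 (-0.04), CALR (-0.23), CANX (-0.05), PDIA4 (-0.21), P4HB (-0.15), SEC61A1 (-0.27), XBP1 (0.16), ATF4 (-0.04) and ATF6 (0.30) did not pass. HSP90B1, the HSP90 of the endoplasmic reticulum, was lower here (-0.39, limma adjusted p = 0.00981).

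These are whole tissue pieces, in which fewer cells of a type and less RNA per cell cannot be told apart. Of 5 smooth muscle markers, 4 (ACTA2, MYH11, TAGLN and CNN1) were called lower in pregnant cows in both tissues, and of 5 endothelial markers 2 (PECAM1 and TEK) were. The mean log2 level of the 5 muscle markers ran from -0.39 over 0.83 to 1.16 in caruncular tissue of cyclic cows and from -1.56 over -0.41 to 0.41 in pregnant cows, and in intercaruncular tissue from -1.24 over 0.28 to 0.90 and from -1.73 over -0.72 to 0.00. Of 7 stroma markers, 3 were called lower in intercaruncular tissue of pregnant cows, and 1 higher and 1 lower in caruncular tissue. Of 6 epithelial markers, 2 (CLDN4 and CDH1) were called higher in both tissues, and 2 (KRT18 and KRT19) lower in caruncular tissue. HSPB2, HSPB6 and HSPB8 are abundant in muscle, and the part of these cell types in the members' changes was not tested. The slide also moved with the state. Within the slide that held both states, the caruncular difference was 1.51 for HSPA4L, 0.62 for DNAJC6, 0.28 for DNAJA1, -0.19 for HSPA12A and 0.51 for HSPB8, the last of opposite sign, and the intercaruncular difference of HSPA4L was -0.12, also of opposite sign. Of the members that passed the adjusted p alone, ATF6 in caruncular tissue (-0.11) also had the opposite sign within that slide. So did HSPB2 (0.09) and HERPUD1 (-0.105) in intercaruncular tissue, and the others kept their sign. XBP1, which did not pass, was at -0.17 there in caruncular tissue. All these within-slide values rest on a single cyclic cow. When slide was fitted as a fixed block, so that this slide alone informed the comparison, limma called 0 of 84 members in either tissue, and 58 and 128 of 14690 probes.

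Genes of the same pathways outside the rule were described by lists. Of 26 further genes of the unfolded protein response, 1 was called higher and 1 lower in caruncular tissue of pregnant cows, namely SESN2 (1.03, SE 0.22), a stress-induced regulator of growth signalling, and MBTPS1 (-0.67, SE 0.11), the protease that makes the first cut in ATF6. On the adjusted p, 3 of these 26 genes were higher and 4 lower, and in intercaruncular tissue 2 and 2. Among 22 heat shock factors and co-chaperones, only CRYAB (alpha B crystallin) was called, higher in caruncular tissue (0.72, SE 0.21). Among 29 genes of entry into the endoplasmic reticulum and glycosylation only SSR3, a subunit of the translocon-associated complex, was called, higher in caruncular tissue (0.75, SE 0.14), and of 6 prefoldin subunits none was. All 4 peptide loading genes, which serve antigen presentation in the same compartment, were higher in caruncular tissue by the adjusted p, with TAP1 at 1.76 and B2M at 1.38.

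Caruncular and intercaruncular tissue differed most in HSPB8, HSPA1L, DNAJB14 and DNAJC6. In pregnant cows 3 of 84 members were called between the tissues, against 17.0% of all probes, and on the adjusted p alone 29, with 12 higher and 17 lower in caruncular tissue, against 46.5%. In cyclic cows 2 were called, against 12.2%, and 23 passed the adjusted p, with 8 higher and 15 lower, against 36.0%. With the cow as a replicate block the counts were again 3 and 2.

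HSPB8 was lower in caruncular tissue of pregnant cows. It ran there from -1.92 over -1.11 to 0.18, and in their intercaruncular tissue from -0.60 over -0.11 to 1.25, a difference of -1.08 (SE 0.22, limma adjusted p = 8.13e-05), and was lower in the caruncular sample of all 12 cows. In cyclic cows, with levels of -0.38 ± 0.64 (SD, n = 10) and 0.20 ± 0.34, the difference was -0.57 (limma adjusted p = 0.0543) and 8 of 10 cows were lower in the caruncular sample. HSPA1L did not overlap between the tissues of pregnant cows. It ran from -0.94 over -0.54 to -0.28 in caruncular and from -0.12 over 0.20 to 0.58 in intercaruncular samples (difference -0.77, SE 0.11, limma adjusted p = 2.37e-07). Its difference in cyclic cows was -0.33 (limma adjusted p = 0.0229). How many of all probes did not overlap between the tissues was not counted. DNAJB14, a DNAJ protein anchored in the membrane of the endoplasmic reticulum, was higher in caruncular tissue, by 0.79 (SE 0.20, limma adjusted p = 0.0011) in pregnant cows, from -0.58 over 0.44 to 0.66 against -1.24 over -0.70 to 0.44, and by 0.68 (SE 0.22, limma adjusted p = 0.0123) in cyclic cows. The caruncular sample was the higher in 10 of 12 and 8 of 10 cows. DNAJC6 was lower in caruncular tissue of cyclic cows (-0.72, SE 0.21, limma adjusted p = 0.00761), in 10 of 10 cows, and was at -0.34 in pregnant cows (limma adjusted p = 0.151), in 11 of 12.

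**Figure D3:**
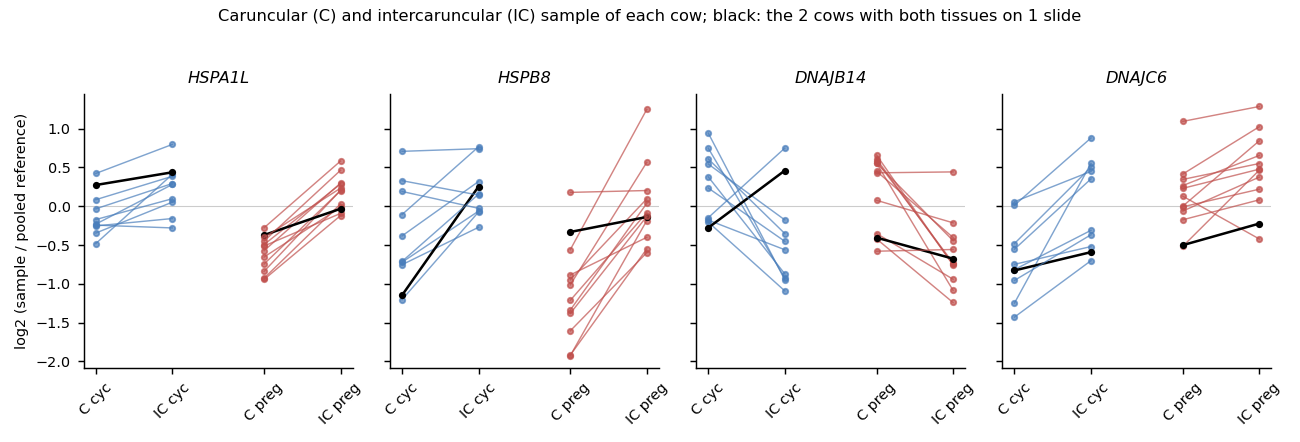
Log2 of sample over pooled reference (vertical axis) in the caruncular (C) and intercaruncular (IC) sample of each cow, joined by a line, blue for cyclic and red for pregnant cows, for HSPA1L, HSPB8, DNAJB14 and DNAJC6. The lines of all 12 pregnant cows rise for HSPA1L and HSPB8, and black marks cows Cyclic_9786 and Pregnant_9790, whose 2 tissues shared a slide and whose DNAJB14 lines run in opposite directions.

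Other members kept their order of tissues in nearly all cows at smaller size. DNAJA4 was lower in the caruncular sample of all 22 cows (12 of 12 and 10 of 10), by 0.57 and 0.45 on the log2 scale in the group means, and CCT6B, a CCT subunit best known from testis, likewise in all 22. HSPBAP1, which binds HSPB1, was lower in 12 of 12 and 10 of 10. DNAJC7 was higher in caruncular tissue in 11 of 12 and 9 of 10 cows (0.34 in both states), and HSPB6 in 12 of 12 pregnant cows (0.52, limma adjusted p = 1.64e-05) but 7 of 10 cyclic cows (0.13). In the unfolded protein response, ATF6 was higher in caruncular tissue of pregnant cows (0.54, limma adjusted p = 0.0125) and ATF4 lower in that of cyclic cows (-0.54, limma adjusted p = 0.00123). ATF6 is a dim probe, well above background in 35 of 44 samples. HSPA5 (0.13 and 0.17), HSPA8 (0.21 and -0.03) and HSPB1 (0.10 and 0.00) did not pass in either state. Markers of ciliated epithelium were called lower in caruncular tissue, 4 of 4 in pregnant and 3 of 4 in cyclic cows, with mean levels from -3.19 over -1.59 to -0.21 and from -1.19 over 0.27 to 0.69 in the 2 tissues of pregnant cows. Of 7 stroma markers, 5 were called higher in caruncular tissue of pregnant and 2 in that of cyclic cows, of 5 smooth muscle markers 2 and 1 were higher, and of 6 epithelial markers 4 and 1 were lower and 1 and 0 higher. The part of these cell types in the differences was not tested.

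Apart from cows Pregnant_9790 and Cyclic_9786 and the repeat arrays, each slide and scan batch held 1 tissue, so tissue and slide cannot be told apart in the other 20 cows. Within a slide, the tissue difference of cow Pregnant_9790 was -0.34 for HSPA1L, -0.19 for HSPB8 and 0.27 for DNAJB14, all of the sign found over the group and all smaller. That of cow Cyclic_9786 was -0.24 for DNAJC6 and -0.74 for DNAJB14, the latter of opposite sign. Of the members with smaller differences, ATF6 (-0.42) and DNAJC7 (-0.11) had the opposite sign in cow Pregnant_9790. ATF4 (0.195) and DNAJC7 (-0.07) had it in cow Cyclic_9786. DNAJA4, CCT6B and HSPBAP1 kept their sign in both cows, and HSPB6 in cow Pregnant_9790. With the slide as a random block, 2 members in pregnant and 0 in cyclic cows were called, against 1783 and 1247 of all 14690 probes. When slide was fitted as a fixed block, 0 members were called in each, and 0 and 2 of all probes.

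An interaction term asked whether the effect of pregnancy differed by tissue. By limma on the 44 samples, 0 of 84 members and 0.0204% of all probes (3 probes) passed an adjusted p of 0.05. At an unadjusted p under 0.05 there were 5 members (6.0%, against 7.4% of all probes). The difference of the 2 pregnancy effects was 0.86 for HSPA4L (95% interval 0.11 to 1.60, limma adjusted p = 0.589). Cows pair the samples, and 2 members passed once cow entered as a fixed replicate block, HSPA1L (-0.44, limma adjusted p = 0.0391) and P4HB (-0.32, limma adjusted p = 0.0449), among 150 probes. Cow as a random block let 4 pass, HSPA1L (adjusted p = 0.0223), P4HB (0.0287), HSPB6 (0.39, 0.0398) and HSPC023 (-0.24, 0.0212), among 434 probes by limma. Both probe counts are out of 14690. In these fits with a cow block, HSPA1L and P4HB were lower in pregnant cows by more in caruncular than in intercaruncular tissue. HSPB6 was lower by more in intercaruncular tissue, and passed with cow as a random block only. With slide as a random or a fixed block, without a cow block, 0 members passed, and 0 and 1 of 14690 probes.

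Embryo size was compared within the pregnant cows. In caruncular tissue limma called 0 of 84 members and 0.0% of all probes, and 2 members had an unadjusted p under 0.05 (2.4%, against 6.9% of all probes), DDIT3 being at 0.34 (p = 0.0058 unadjusted by limma). In intercaruncular tissue 1 member, the CCT subunit CCT6A, was called, against 3.69% of all probes. CCT6A ran from -0.49 over -0.24 to -0.01 in the 7 cows with a large and from -0.89 over -0.79 to -0.44 in the 5 with a small embryo, and 6 of 7 large-embryo cows were above the highest small-embryo cow (difference 0.46, SE 0.10, limma adjusted p = 0.0369). It fell short of the threshold when any of cows Pregnant_932, Pregnant_9246, Pregnant_3805, Pregnant_3807, Pregnant_3803, Pregnant_1943 or Pregnant_3957 was left out, with differences of 0.42 to 0.48 and limma adjusted p of 0.0558 to 0.108. Of the 8 CCT subunits, 7 had higher means with a large embryo, with a median of 0.13. The share of all probes with a higher mean is not given beside this count. CCT5 ran from -0.12 over 0.08 to 0.39 against -0.37 over -0.26 to -0.12, without overlap, at 0.38 (limma adjusted p = 0.0519). The share of all probes without overlap between the embryo groups was not counted.

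**Figure D4:**
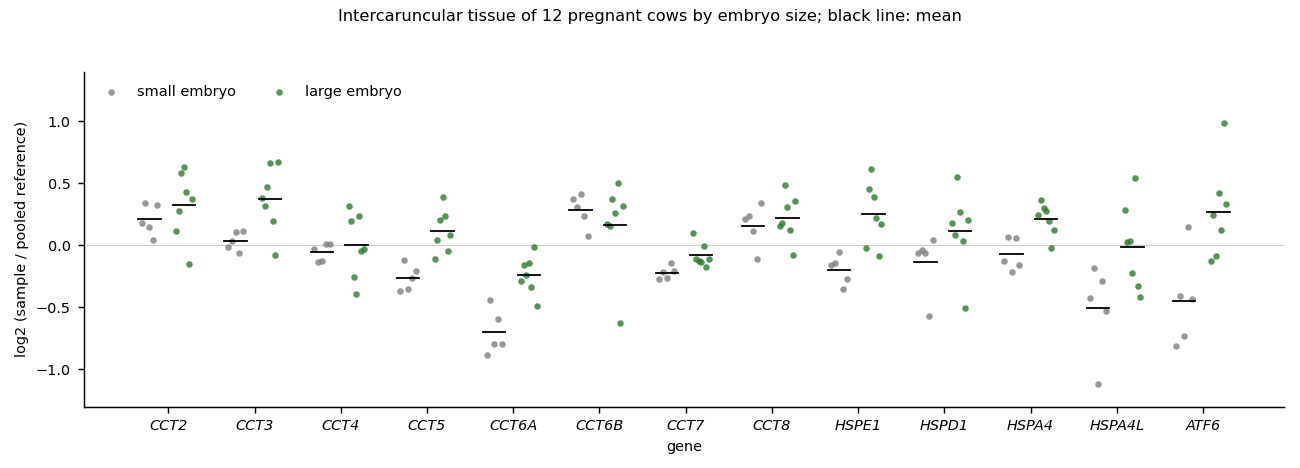
Log2 of sample over pooled reference (vertical axis) in intercaruncular tissue of the 7 cows with a large (green) and 5 with a small embryo (grey), with a black line for each mean, for the 8 CCT subunits, the mitochondrial chaperonins HSPE1 and HSPD1, the HSP110 proteins HSPA4 and HSPA4L, and ATF6. CCT5 separates the groups, and for CCT6A 6 of 7 green points lie above all grey points.

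Over all members, 54 of 84 had a higher mean with a large embryo in intercaruncular tissue, a count given without the share of all probes. The median change was 0.06 against -0.01 over all probes. At an unadjusted p under 0.05 there were 21 members, 14 of them higher, which is 25.0% against 21.6% of all probes. Cytosolic and mitochondrial folding genes that did not pass included HSPE1 (0.45, limma adjusted p = 0.0671), HSPD1 (0.25), HSPA8 (0.28), HSPA4 (0.29) and HSPA4L (0.50), and ATF6 was at 0.72 (limma adjusted p = 0.0718). HSPB8 was at -0.67 and PDIA2, the pancreatic disulfide isomerase, at -0.69, and neither passed. The count depended on single cows, since without cow Pregnant_9790 limma called 10 members of 84, and 1882 of all 14690 probes. Without cow Pregnant_3956, and without cow Pregnant_926, it called 2 members, and 644 and 343 probes. Without any 1 of the 7 cows that cost CCT6A its call it called 0 members, and 34 to 222 probes. Fitting slide as a fixed block called 11 members, and 1086 of 14690 probes. Of 5 smooth muscle markers none was called in this comparison, though their mean level ran from -1.73 over -1.10 to -0.61 with a large and from -0.79 over -0.48 to 0.00 with a small embryo. Of 5 endothelial markers 1 was called lower with a large embryo (PECAM1, -0.93) and of 7 stroma markers 1 (COL3A1, -0.92), the mean stroma level running from -0.59 over -0.45 to 0.10 with a large and from -0.03 over 0.01 to 0.28 with a small embryo. The part of these markers in the result was not tested.

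Fertile and sub-fertile cows did not differ past the threshold. Limma called 0 of 84 members in either tissue, against 0.0% of all probes in caruncular and 0.0477% in intercaruncular tissue. Repeat arrays left aside, a single slide per tissue held both classes, with cows Pregnant_932 and Pregnant_9246 (fertile) and Pregnant_3805 and Pregnant_977 (sub-fertile). In the other pregnant cows class and slide cannot be told apart. With slide as a random or a fixed block, 0 members were called in either tissue. At an unadjusted p under 0.05 there were 11 members (13.1%, against 13.8% of all probes) in caruncular tissue, 10 of them higher in fertile cows, and 4 in intercaruncular tissue (4.8%, against 13.6%). XBP1, the transcription factor of the secretory response, ran in caruncular tissue from 0.04 over 0.14 to 0.53 in the 6 fertile and from -0.58 over -0.33 to -0.08 in the 6 sub-fertile cows, without overlap (difference 0.50, limma adjusted p = 0.225). DNAJB9, a co-chaperone of HSPA5, likewise did not overlap (0.31, limma adjusted p = 0.264), but its second probe did, at 0.13 (limma adjusted p = 0.705). The share of all probes without overlap between these classes was not counted. The caruncular level of HSPA4L ran from 0.31 over 0.69 to 1.07 in fertile and from -1.54 over -0.73 to 1.04 in sub-fertile cows, a difference of 1.20 (95% interval 0.44 to 1.96) that did not pass (limma adjusted p = 0.278). With its second probe, at 1.00 (limma adjusted p = 0.278), no fertile cow lay above the highest sub-fertile cow. In intercaruncular tissue PDIA4 was at -0.56 (limma adjusted p = 0.209), all 6 sub-fertile cows lying between 0.21 and 0.53 and the fertile cows running from -0.85 over -0.23 to 0.31.

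Pairs of chaperones were compared across the cows of each group, with 44 correlations computed and p-values from permutation tests adjusted over all of them. HSPA8 varied with HSPD1, the mitochondrial chaperonin, in caruncular tissue of the 12 pregnant cows (r = 0.87, permutation adjusted p = 0.0079, rho = 0.94, adjusted p = 0.00044, and r = 0.95 without the 2 cows farthest from the median of HSPA8) and in their intercaruncular tissue (r = 0.79, permutation adjusted p = 0.043, rho = 0.76, adjusted p = 0.082, and r = 0.65). In cyclic cows r was 0.71 in caruncular (9 cows, permutation adjusted p = 0.16) and 0.49 in intercaruncular tissue (permutation adjusted p = 0.28). HSPA8 and HSP90AA1 correlated in caruncular tissue of the 10 cyclic cows (r = 0.85, permutation adjusted p = 0.043, rho = 0.81, adjusted p = 0.082, and r = 0.83 without 2 cows), and not past the threshold in pregnant cows (r = 0.16). None of the 24 pairs of HSPA5 with its partners of the endoplasmic reticulum passed. Cows of a group share slides, and the correlations were not computed within slides, which hold at most 4 cows.

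Some members stood apart in single cows. HSPA6, a strictly inducible HSP70, was at 1.79 in caruncular and 1.72 in intercaruncular tissue of cow Cyclic_3811, while the other 9 cyclic cows lay from -1.70 to -0.10 and from -1.21 to -0.15. PDIA4 was at -1.12 and -1.22 in cow Cyclic_9786, the other cyclic cows lying from -0.10 to 1.00 in caruncular and from -0.27 to 0.99 in intercaruncular tissue. In the same cow SEC61A1 was at -0.72 in intercaruncular tissue, where the others lay from -0.13 to 0.38, and HSPA1B was the lowest of all cows at -2.08 and -1.73. DNAJA2 was at 1.74 and 1.23 in cow Pregnant_3956, against at most 0.31 and 0.41 in the other pregnant cows. HSPA6, HSPA1B and DNAJA2 were chosen after their values were seen. Both tissues of cow Cyclic_9786 were on 1 slide, and the part of that slide in its values was not tested. The tissues of cows Cyclic_3811 and Pregnant_3956 were on separate slides.

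**Figure D5:**
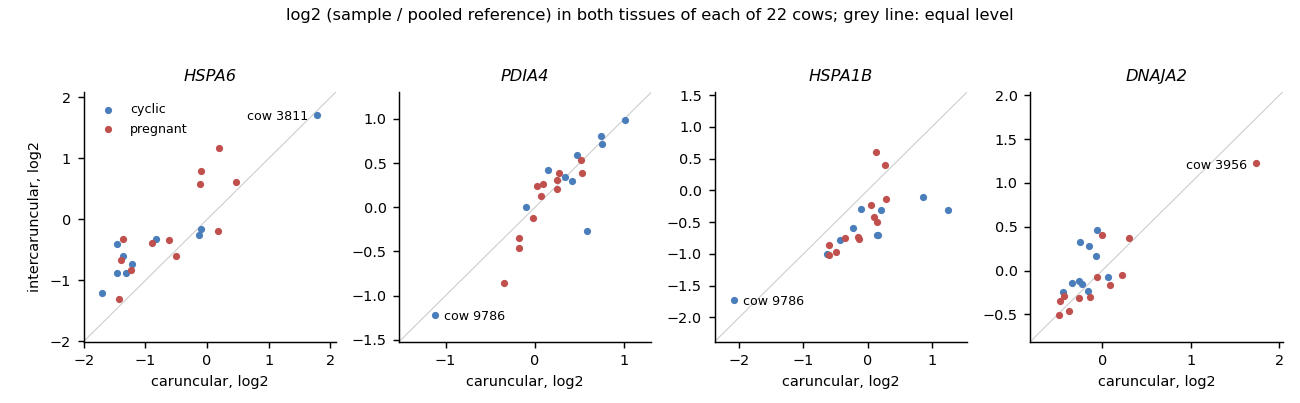
Caruncular (horizontal) against intercaruncular level (vertical), both as log2 of sample over pooled reference, of HSPA6, PDIA4, HSPA1B and DNAJA2, with a point for each of the 22 cows and a grey line where the 2 tissues are equal. Cow Cyclic_3811 is highest in both tissues for HSPA6, cow Cyclic_9786 lowest for PDIA4 and HSPA1B, and cow Pregnant_3956 highest for DNAJA2.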

How the data were processed

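RNA of 44 samples was measured on 48 arrays, 4 caruncular samples being hybridised a second time. All samples were labelled with Cy5 and the pool with Cy3, without dye swap. The authors extracted the spots with Agilent Feature Extraction, which subtracted background and normalized dyes by LOWESS. The deposited scanner tables hold the sample signal as a background-subtracted, dye-normalized intensity and its ratio to the pool as log10, and version 9.5.3.1 is given per the file headers. The authors' deposited matrix of log2 ratios was used as an alternative. For the present report, log10 ratios were taken to log2, centred on the median of each array, and averaged over spots of a probe and over repeat arrays, whose differences had an SD of 0.102 to 0.148. Probes entered the tests if 22 or more of the 44 samples had a signal of 80 units or more that was also well above background (14690 of 21475 probes).

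Comparisons used limma 3.58.1 (lmFit, eBayes) in R 4.3.3, and p-values were adjusted over the 14690 probes by the Benjamini-Hochberg method, after tests on simulated data. Calls needed at least 1.5-fold and an adjusted p under 0.05 between states or tissues, and the adjusted p alone elsewhere. Permutation tests used 100000 resamples (SciPy 1.17.1). The cow number, which is the same animal in both tissues, pairs samples, and deviations from group means correlated between the tissues in all 22 cows (r from 0.11 to 0.87, median 0.61). Named were members called in a comparison and a list of widely studied chaperones, and other members named were chosen after their values were seen, mostly for passing the adjusted p alone. Where a gene had several probes among the members the brightest of them stood for it. A second probe outside the rule did not stand for its gene, though for HSPA4L it was the brighter. Markers and gene lists came from general knowledge of the cell types and pathways. Members and lists were chosen with earlier results of these data known. Of the 93 members, 78 matched the RefSeq table of assembly ARS-UCD2.0 by accession or gene number, 15 of them under another symbol there. The other 15 did not match. The number of arrays limits the precision. Alternatives were other background corrections, centrings, filters and array choices, the deposited matrix, the t-test named in the methods, slide, scan batch and cow as blocks, and the leaving out of cows. The arrays' p-values per spot were not used.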

Additional observations from a re-analysis of the deposited data

Results flagged for a closer look

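In 80 groups of a named member tested for a sample far from the rest, 4 were found, where chance alone flags about 1 in 20 groups. HSPA6 was added to the groups after its values were seen, and its flags in both tissues come from the same cow. The number found can therefore not be read against that share. HSPA6 in cow Cyclic_3811 was at 1.79 in caruncular tissue, with the other cows from -1.70 to -0.10, and at 1.72 in intercaruncular tissue, with the others from -1.21 to -0.15. In cow Cyclic_9786 PDIA4 was at -1.12 in caruncular tissue, with the others from -0.10 to 1.00, and SEC61A1 at -0.72 in intercaruncular tissue, with the others from -0.13 to 0.38.

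The effect of pregnancy differed between the tissues for 2 members by limma once cow was a fixed replicate block, HSPA1L (-0.44, SE 0.10, adjusted p = 0.0391) and P4HB (-0.32, SE 0.08, adjusted p = 0.0449). Cow as a random replicate block gave 4, HSPA1L (-0.44, adjusted p = 0.0223), P4HB (-0.32, adjusted p = 0.0287), HSPB6 (0.39, SE 0.11, adjusted p = 0.0398) and HSPC023 (-0.24, SE 0.06, adjusted p = 0.0212), each value being the caruncular minus the intercaruncular effect. Over all 14690 probes, 150 passed with the fixed and 434 with the random cow block. Without the cow block no member passed, also when slide was a random or a fixed block.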

How the results depend on the processing

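Counts of members called by limma moved by over 1.5 times in these cases. In caruncular tissue, the 5 called between pregnant and cyclic cows became 3 with normexp and loess, with centring on the probes tested, with slide as a random block and with scan date as a fixed block, and 0 with slide as a fixed block. In intercaruncular tissue the 1 became 0 with normexp and loess, slide as a random or a fixed block, and all 44 samples in 1 fit. Between tissues, the 3 in pregnant cows became 0 with slide as a fixed block, where 0 of all probes were called. The 2 in cyclic cows became 0 with slide as a random or a fixed block, where 1247 and 2 of all probes were called. With the cow as a replicate block the interaction went from 0 to 2 (fixed) and 4 (random), with 150 and 434 of all probes. The cow block changed neither tissue count. For embryo size in intercaruncular tissue the 1 became 2 with normexp and loess, centring on the probes tested, the stricter filter or the deposited matrix. It became 4 with slide as a random block and 11 as a fixed block. As each cow was left out it ran from 0 to 10, 10 being without cow Pregnant_9790. Over all 14690 probes, 542 were called as reported, 1086 with slide as a fixed block and 1882 without that cow. Spearman's rho left 1 correlation of the 3. Centring on the probes tested, leaving out the third scan batch (4 and 1 called between states) and Spearman's rho were chosen after seeing the data.

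Reversed were HSPB8 in caruncular tissue (0.51 with slide as a fixed block, limma adjusted p = 0.872, and within 1 slide), HSPA4L in intercaruncular tissue (-0.12, limma adjusted p = 0.964, likewise), and DNAJB14 between tissues with slide as a fixed block (-0.37 in pregnant and -0.10 in cyclic cows) and within 1 slide (-0.74). HSPB8, with a limma adjusted p of 0.0482 as reported, had one from 0.0517 to 0.872 under 7 alternatives, among them no filter and the methods' t-test. HSPA12A also lost its caruncular call under 7 alternatives. Of 3850 values of named members under alternatives, 127 stayed called, 32 lost and 27 gained a call, 7 reversed and 3509 stayed uncalled, 141 of these with a change of sign. Signal over background limited 9 members, which were not tested, and ATF6 and HSPA6 were well above background in 35 and 39 of 44 samples.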

Other observations

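For 3 genes a second probe on the array, which the reference table assigns to the gene, lay outside the rule and was tested. DNAJB9, a co-chaperone of HSPA5, had a tissue difference of -0.15 (limma adjusted p = 0.173) in pregnant and -0.17 (0.168) in cyclic cows with its member probe, but 0.73 (limma adjusted p = 0.000146) and 0.90 (6.8e-05) with the second probe. PDIA5 was at 0.14 in pregnant cows (limma adjusted p = 0.208) with its member probe and at 0.63 (limma adjusted p = 0.000464) with the second. Both HSPA4L probes gave the same direction in the comparison of states.

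Of the gene lists outside the rule, heat shock factors and co-chaperones held 4 genes of 22 called between the tissues of pregnant cows, a share close to the 17.0% of all probes, all higher in caruncular tissue: SERPINH1 (0.98, SE 0.14), the collagen chaperone of the endoplasmic reticulum, CHORDC1 (0.79, SE 0.15), BAG1 (0.64, SE 0.21) and HSF4 (0.60, SE 0.17). The stress factor CREB3L2 was also higher there (1.21, SE 0.13), and CREB3L1 (-0.72, SE 0.12) and PPP1R15A (-0.79, SE 0.19), the phosphatase subunit that ends the translational block of the unfolded protein response, were lower. CRYAB was called with embryo size, higher in intercaruncular tissue with a large embryo (1.20, SE 0.26, limma adjusted p = 0.0329). Among 11 immediate early genes, which handling of tissue can induce, ATF3 was called higher in pregnant cows in both tissues (1.22 and 1.19), while EGR1 (-1.28 and -1.13) and CYR61 (-1.08 and -0.93) were called lower in both.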
